A study of Mus musculus with 8 samples.

Results

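Glycolysis and the hypoxia response were followed through 41 genes, out of the 53379 genes counted, in 4 mouse mammary carcinoma cell lines. The 41 are named genes of glucose uptake, the glycolytic steps, lactate handling, oxygen sensing and the targets of the hypoxia-inducible factors (HIFs), and their rows were found by gene symbol in the GENCODE M21 annotation. The 687g and Epcam hi lines came from tumours of MMTV-PyMT-Snail-IRES-YFP reporter mice, and the pB3 and pB2 lines from tumours of MMTV-PyMT mice. All 4 lines share the C57BL/6 background and the polyoma middle T (PyMT) oncogene, which the MMTV promoter drives mainly in mammary epithelium. Each line gave 2 libraries from untreated adherent cells, grown in DMEM/F12 with 5% adult bovine serum at 37 °C and 5% CO2. The oxygen level of the cultures, and whether a line is a single clone, are not given in the sources used here. Since nothing states that the 2 libraries of a line are separate cultures, p-values below cover just the spread between libraries, which may be technical.

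Glycolysis turns glucose into pyruvate, and lactate dehydrogenase can then reduce pyruvate to lactate, which leaves the cell through monocarboxylate carriers. When oxygen is low, the prolyl hydroxylases encoded by the Egln genes no longer mark the HIF alpha subunits for destruction. A stabilised alpha subunit (Hif1a or Epas1) pairs with Arnt, binds short DNA motifs built on the core ACGTG or GCGTG, and raises transcription of many glycolytic genes as well as targets outside glycolysis, such as Car9 and Ndrg1. Control of HIF by oxygen acts mostly on the protein, which these data do not measure.

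Windows of 300 bases from RefSeq (GRCm38.p6), reaching from 250 bases before to 50 bases after an annotated transcript start, were found for 38 of the 41 genes, and no sequence was used for Bnip3l, Ndrg1 and Epas1. The RefSeq start lay within 500 bases of the GENCODE gene start for 31 of them, and 4329 bases from it for Ldha, 5856 for Ankrd37 and 6492 for Hif1a. The letters ACGTG or GCGTG, read on either strand, occurred in 30 of these 38 windows (78.9%). They occurred in 6656 of 10565 windows of tested genes (63.0%) and in 14380 of all 32851 windows in the table (43.8%). Among the core glycolytic genes 11 of 17 windows held a match (64.7%), and among the HIF targets outside glycolysis 9 of 11 did (81.8%). A match describes these letters and not a bound site, and the windows of Hk1, Gpi1, Aldoa, Tpi1, Eno2, Pkm, Vegfa and Mxi1 held none.

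The 250 bases before the start are shown for a set of genes whose levels differed in contrasting ways across the lines, the lactate dehydrogenases Ldha and Ldhb, the kinase Pgk1 and the peptide hormone gene Adm. The Ldha stretch precedes a RefSeq start inside the GENCODE gene span given further on. Capitals mark the core motif, ACGTG or GCGTG, read on either strand. The palindrome known as an E-box core, CACGTG, holds ACGTG on both strands, so it was counted as 2 matches.
Ldha, chr7:46845554-46845803, plus strand: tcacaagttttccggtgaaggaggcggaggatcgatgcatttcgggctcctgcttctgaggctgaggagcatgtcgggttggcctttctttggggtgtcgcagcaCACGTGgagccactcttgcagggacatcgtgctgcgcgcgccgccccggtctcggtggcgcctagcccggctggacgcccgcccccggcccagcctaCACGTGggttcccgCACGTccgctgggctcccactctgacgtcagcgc
Ldhb, chr6:142507958-142508207, minus strand: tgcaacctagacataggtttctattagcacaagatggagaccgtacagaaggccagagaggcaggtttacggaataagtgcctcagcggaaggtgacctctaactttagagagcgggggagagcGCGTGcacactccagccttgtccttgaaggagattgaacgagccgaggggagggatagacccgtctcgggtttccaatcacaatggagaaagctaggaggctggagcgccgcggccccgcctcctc
Pgk1, chrX:106186850-106187099, plus strand: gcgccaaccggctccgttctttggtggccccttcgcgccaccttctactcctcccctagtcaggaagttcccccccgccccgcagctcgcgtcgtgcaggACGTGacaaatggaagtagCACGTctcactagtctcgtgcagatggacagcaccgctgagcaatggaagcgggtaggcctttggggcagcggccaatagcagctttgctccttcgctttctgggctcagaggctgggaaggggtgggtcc
Adm, chr7:110627407-110627656, plus strand: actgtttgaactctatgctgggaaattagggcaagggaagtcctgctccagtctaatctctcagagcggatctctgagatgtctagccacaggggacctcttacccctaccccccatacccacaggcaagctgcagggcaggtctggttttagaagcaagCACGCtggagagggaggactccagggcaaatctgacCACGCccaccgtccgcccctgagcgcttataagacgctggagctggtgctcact
Ldha had 5 matches here, Pgk1 and Adm had 2 each, and Ldhb had 1. Both E-box cores of the set lay in the Ldha stretch.

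Shorter stretches around a match are shown, with the same marking, for 5 genes picked with their values known as examples from different steps, a surface enzyme, a lactate carrier, a mitochondrial gatekeeper, an oxygen sensor and a mitophagy receptor.
Car9, chr4:43506998-43507022, plus strand: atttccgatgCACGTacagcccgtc
Slc16a3, chr11:120949030-120949059, plus strand: ggcagcggtgACGTGcgcgggggACGTGcc
Pdk1, chr2:71873136-71873160, plus strand: gcctacatggGCGTGtctttaacca
Egln3, chr12:54204089-54204113, minus strand: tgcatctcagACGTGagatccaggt
Bnip3, chr7:138909597-138909626, minus strand: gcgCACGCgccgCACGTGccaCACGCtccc
The Car9 match lay within 28 bases of the start, and the Slc16a3 stretch held 2 copies of ACGTG in the same orientation. The Bnip3 stretch held an E-box core between 2 matches to GCGTG on the opposite strand. Car9 and Pdk1 both carry a match near the start, and their levels followed different orders across the lines. Any link between matches and levels was not tested.

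**Figure D1:**
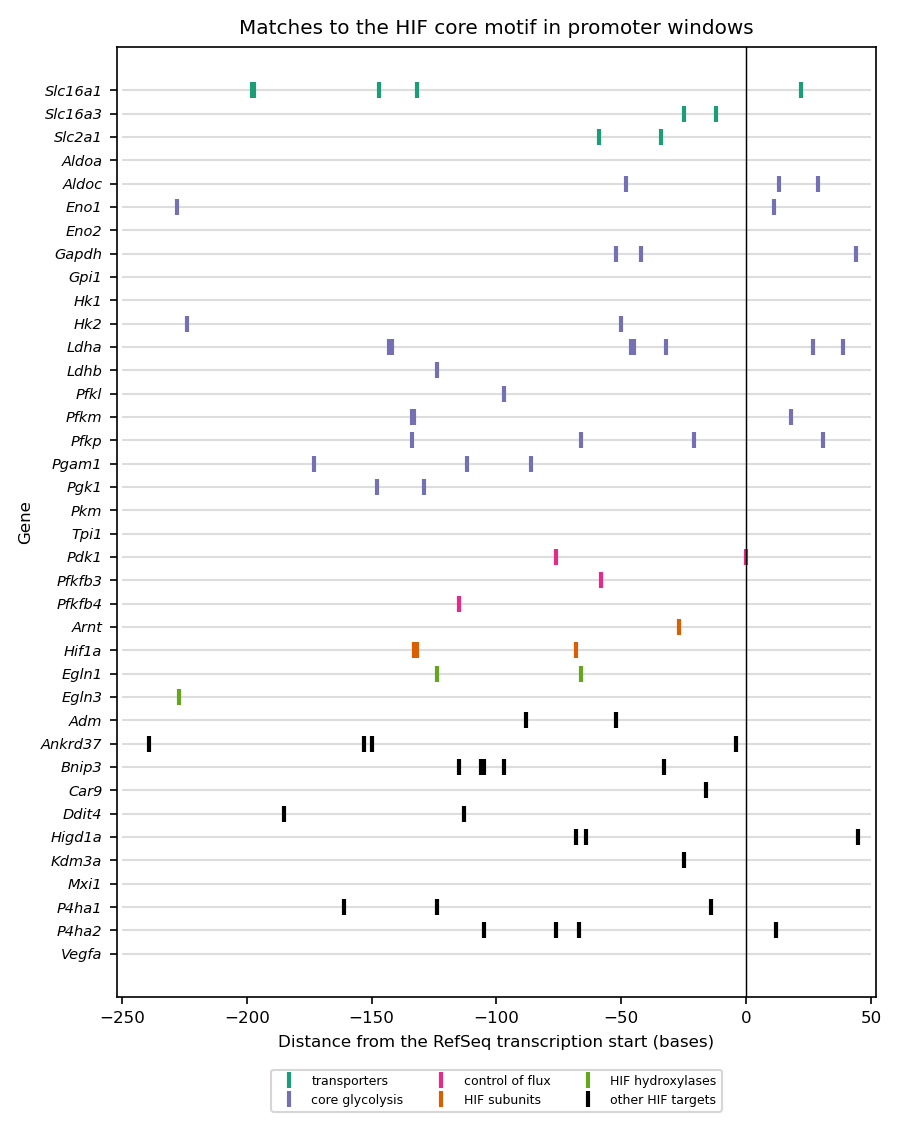
Positions of ACGTG or GCGTG (either strand) in the 300-base RefSeq windows of the members, one row per gene, as distance in bases from the annotated start. Ticks stand for matches and colours for roles, and 30 of 38 windows hold at least 1.

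Libraries held 12442730 to 19149916 counts, and the 41 genes took 0.382% to 0.630% of them. All 41 passed the filter on low counts that left 15890 genes for testing. Levels are given as CPM, counts scaled to a common library size with TMM factors, and values after ± are the SD of 2 libraries for levels and the standard error for log2 fold changes. Adjusted p-values are those of edgeR's quasi-likelihood test with Benjamini-Hochberg adjustment over all 15890 genes, called edgeR from here on, and a difference passed at an adjusted p under 0.05. The median member had a mean of 71.6 CPM, against 16.5 CPM for all tested genes. Replicates were tighter in pB3 and pB2, where none of 34 and of 33 members above 10 CPM differed by over 1.5-fold between the 2 libraries, than in 687g (8 of 34) and Epcam hi (9 of 34). Epcam stood at 3.85 and 3.70 CPM in 687g, 1409.9 and 1537 in Epcam hi, 278 and 264 in pB3, and 579 and 553 in pB2. The name Epcam hi thus fits its marker. Vim, a mesenchymal filament gene, had 3388 and 2335 CPM in 687g, 21.3 and 32.5 in Epcam hi, 2309.9 and 2432 in pB3, and 13.8 and 14.1 in pB2. Of the other epithelial markers, Cdh1 followed the order of Epcam, with means of 1.32 CPM in 687g, 488 in Epcam hi, 51.4 in pB3 and 155 in pB2. Krt8 and Krt18 did not, and were lowest in pB2. Krt8 had means of 226 CPM in 687g, 472 in Epcam hi, 480 in pB3 and 99.4 in pB2. Krt18 had means of 1115, 2826, 1975 and 212 CPM in the same lines. Summed over 7 leukocyte markers, the libraries held 0.949 to 1.81 CPM in 687g, 14.2 to 35.9 CPM in Epcam hi, 1.34 to 1.43 CPM in pB3 and 0.667 to 1.06 CPM in pB2, nearly all of it Cd68 in Epcam hi. For 6 fibroblast markers the sums were 15.8 to 21.2, 2.35 to 2.88, 15.1 to 17.8 and 60.4 to 81.1 CPM in the same lines. In pB2 these were mostly Pdgfra (43.6 and 59.7 CPM) and Col1a1 (16.1 and 20.7 CPM), and in pB3 mostly Pdgfra (13.4 and 15.5 CPM). In 687g they were mostly Pdgfrb (13.5 and 8.13 CPM) and Pdgfra (6.08 and 5.98 CPM). Dcn, Lum and Thy1 were at or near 0 in all lines. Adipocyte markers summed to 9.71 to 16.3 CPM in 687g, mostly Fabp4, and to at most 1.86 CPM in the other lines, with Adipoq and Lep at 0, while endothelial markers stayed below 0.942 CPM and erythroid markers below 0.107 CPM. The part of such cells in the differences that follow was not tested, and in bulk RNA fewer cells of a type and less RNA per cell cannot be told apart.

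**Figure D2:**
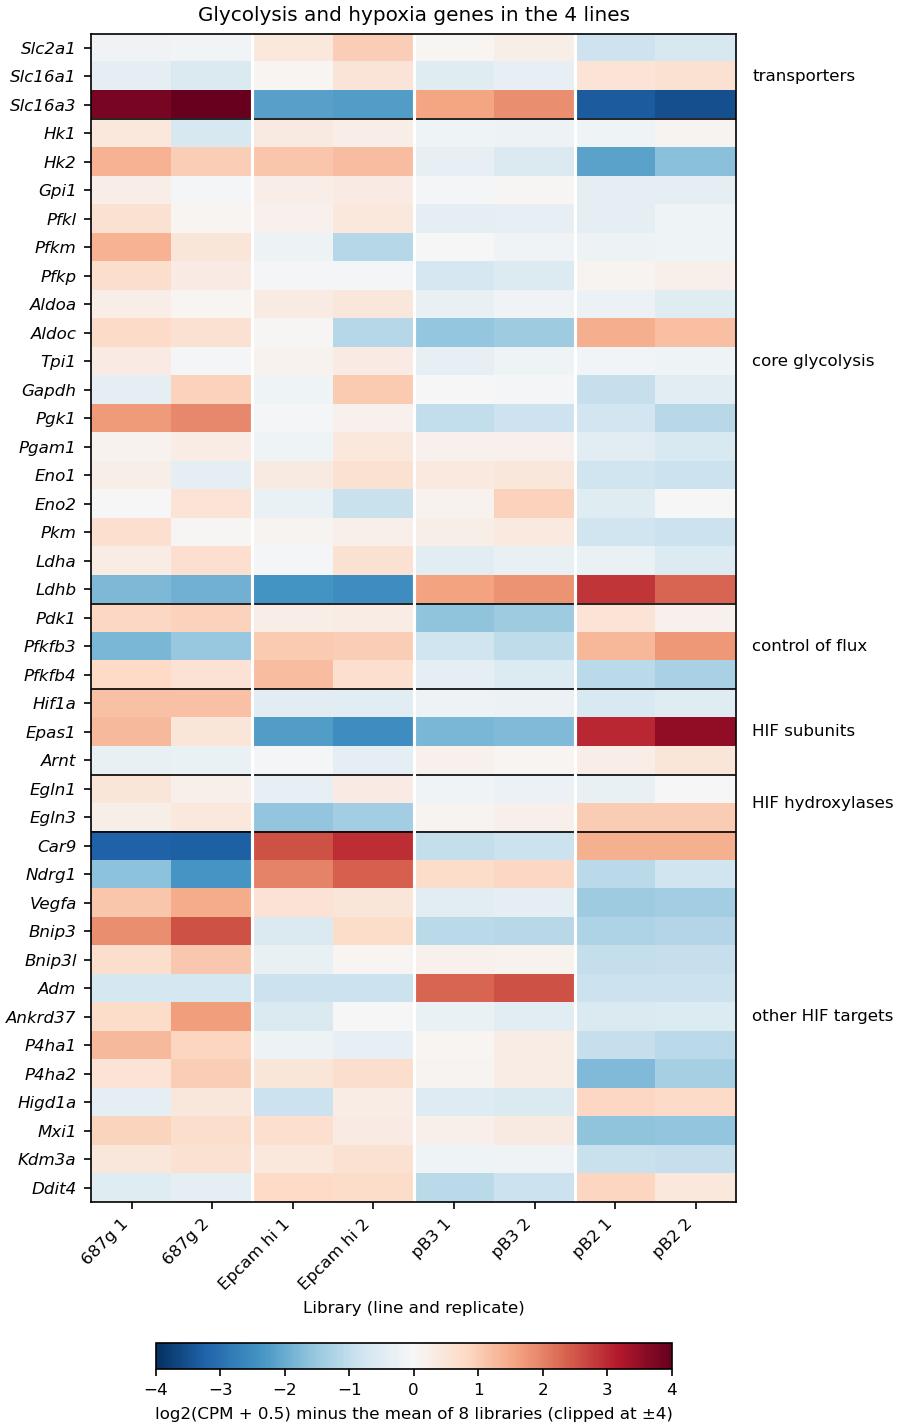
Level of each of the 41 genes in each of the 8 libraries, as log2(CPM + 0.5) minus the mean of the gene over the libraries (colour, clipped at 4 either way), with genes grouped by role. Slc16a3, Ldhb, Epas1, Car9 and Ndrg1 show the widest spread between lines, and most rows from Hk1 to Ldha are pale.

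By mean CPM, 20 of the 41 genes were highest in 687g, 11 in Epcam hi, 2 in pB3 and 8 in pB2, whereas 5, 6, 9 and 21 were lowest in these lines, with Adm, at 0 in both Epcam hi and pB2, counted under Epcam hi. No tested order is implied by these counts, since neighbouring lines often lay within the spread of their libraries. The same count was not made for all tested genes, so these numbers do not show a trait particular to the 41. Summed per kilobase of exon, the 17 core glycolytic genes had summed levels in CPM per kb of 1109 ± 64.4 in 687g, 1022 ± 136 in Epcam hi, 751 ± 49.2 in pB3 and 684 ± 58.9 in pB2. The 13 HIF targets outside glycolysis had sums of 436 ± 67.7 in 687g, 392 ± 39.0 in Epcam hi, 207 ± 9.15 in pB3 and 256 ± 27.7 in pB2 on the same scale. Both sums were therefore larger in the lines of the Snail-IRES-YFP model than in the lines of the MMTV-PyMT model. For the HIF targets, pB3 stood below pB2 on this scale (ratio 0.808) and above it in CPM not divided by exon length (ratio 1.13). Ddit4 alone gave 41.7 CPM per kb in pB3 and 128 in pB2.

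The HIF alpha subunits divided the lines. Hif1a, the ubiquitous alpha subunit, lies at chr12:73901375-73947530 (plus strand) on GRCm38 and had 334 and 335 CPM in 687g, 109 and 109.6 in Epcam hi, 127 and 125 in pB3, and 96.3 and 105 in pB2. The 687g libraries thus stood apart at about the same level, and the other 3 lines lay close together. Hif1a was higher in 687g than in Epcam hi by 1.61 ± 0.16 (adjusted p = 3.32e-06) on the log2 scale and higher in 687g than in pB3 by 1.41 ± 0.16 (adjusted p = 2.09e-05), by edgeR. Between pB3 and pB2 the log2 fold change was 0.32 ± 0.16 (adjusted p = 0.122), which did not pass, although it did pass when only those 4 libraries were fitted (0.0137).

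Epas1, which encodes HIF-2 alpha and lies at chr17:86753700-86833410 (plus strand), had 8.65 and 4.64 CPM in 687g, 0.281 and 0.164 in Epcam hi, 0.538 and 0.583 in pB3, and 29.5 and 42.6 in pB2. It was thus high in pB2, intermediate in 687g and below 1 CPM in the other lines, with no overlap between these levels. Its log2 fold change was 4.90 ± 0.48 (adjusted p = 2.26e-06) for 687g over Epcam hi and -5.99 ± 0.40 (adjusted p = 3.67e-08) for pB3 over pB2, by edgeR. Per kilobase of exon, Epas1 made up 2.05% ± 0.860 in 687g, 0.215% ± 0.0806 in Epcam hi, 0.467% ± 0.0323 in pB3 and 27.2% ± 3.94 in pB2 of the sum of both alpha subunits. Arnt, the common partner, ranged only from 26.9 CPM in an Epcam hi library to 49.1 CPM in a pB2 library. It passed the test in 1 of the 4 line comparisons, at -0.60 ± 0.19 (adjusted p = 0.0152) for Epcam hi over pB2, no longer called without Epcam hi replicate 2 (adjusted p = 0.0573) or pB2 replicate 2 (adjusted p = 0.0862).

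Of the hydroxylases that mark HIF for destruction, Egln1, the main oxygen sensor, differed little, and Egln3, itself a HIF target, differed strongly. Egln1 had 62.4 and 50.7 CPM in 687g, 34.9 and 55.1 in Epcam hi, 39.4 and 37.3 in pB3, and 35.7 and 43.7 in pB2. No comparison between lines passed for Egln1 with all libraries. Egln3 had 73.5 and 85.4 CPM in 687g, 20.5 and 23.5 in Epcam hi, 67.9 and 72.5 in pB3, and 127 and 128 in pB2. Its libraries did not overlap between Epcam hi, the lowest line, and any other line. Egln3 was higher in 687g than in Epcam hi by 1.85 ± 0.18 (adjusted p = 2.24e-06) and lower in pB3 than in pB2, at -0.86 ± 0.17 (adjusted p = 0.00106), by edgeR.

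**Figure D3:**
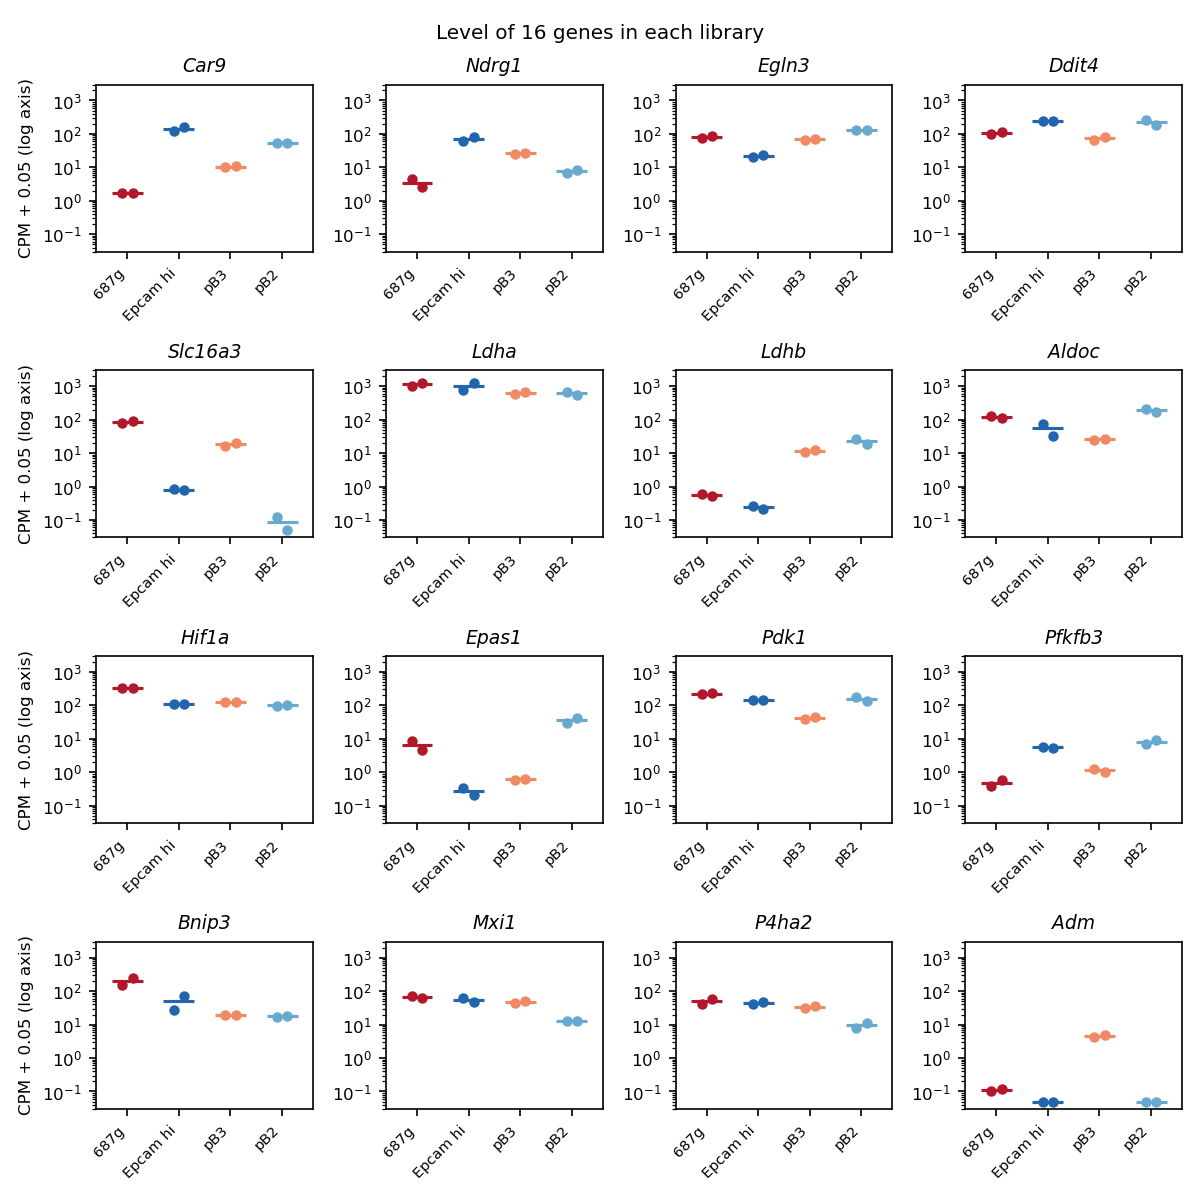
CPM in each library (points; log axis after adding 0.05 CPM) and the mean of each line (horizontal dash) for 16 members, with lines ordered 687g, Epcam hi, pB3 and pB2. Car9 and Ndrg1 are lowest in 687g and highest in Epcam hi, while Ldha stays between 556 and 1275 CPM in all 8 libraries.

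Car9 and Ndrg1, both widely used as readouts of the hypoxia response, were lowest in the line with the most Hif1a RNA. Car9 encodes carbonic anhydrase IX, a membrane enzyme that acidifies the cell's surroundings, and lies at chr4:43506966-43513729 (plus strand). It had 1.67 and 1.61 CPM in 687g, 119.6 and 157 in Epcam hi, 10.1 and 10.8 in pB3, and 54.4 and 54.7 in pB2. Each line formed a tight pair of libraries and no pairs overlapped, with Epcam hi on top, pB2 next, then pB3 and 687g. The log2 fold change of Car9 was -6.39 ± 0.25 (adjusted p = 3.32e-10) for 687g over Epcam hi, -2.39 ± 0.20 (adjusted p = 3.17e-07) for pB3 over pB2, 1.34 ± 0.18 (adjusted p = 3.43e-05) for Epcam hi over pB2 and -2.66 ± 0.24 (adjusted p = 2.06e-06) for 687g over pB3, by edgeR.

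Ndrg1, a stress-response gene of the N-myc downregulated family, lies at chr15:66929318-66969640 (minus strand) and had 4.41 and 2.49 CPM in 687g, 60.6 and 80.3 in Epcam hi, 25.01 and 27.0 in pB3, and 6.81 and 8.33 in pB2. Epcam hi was again highest and 687g lowest, but here pB3 lay above pB2. The log2 fold change was -4.33 ± 0.28 (adjusted p = 3.16e-08) for 687g over Epcam hi and 1.77 ± 0.25 (adjusted p = 5.42e-05) for pB3 over pB2, by edgeR. Car9 and Ndrg1 thus fell together in 687g relative to Epcam hi, and moved in opposite directions in pB3 relative to pB2.

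Vegfa, the main angiogenic growth factor, and the mitophagy receptor genes Bnip3 and Bnip3l were, unlike Car9, highest in 687g, and they were lowest in pB2. Vegfa had 247 and 319.9 CPM in 687g, 173 and 159.8 in Epcam hi, 83.0 and 88.5 in pB3, and 42.2 and 43.7 in pB2. Bnip3 had 154 and 245 CPM in 687g, 28.1 and 70.5 in Epcam hi, 19.7 and 19.1 in pB3, and 17.3 and 18.5 in pB2. Bnip3l had 315 and 409 CPM in 687g, 156 and 203 in Epcam hi, 216 and 214 in pB3, and 99.3 and 101 in pB2. The lines did not overlap for Vegfa, while for Bnip3 the pB3 and pB2 libraries lay close together, and for Bnip3l pB3 lay above Epcam hi. Vegfa was higher in 687g than in Epcam hi by 0.77 ± 0.18 (adjusted p = 0.00381) and higher in pB3 than in pB2 by 1.00 ± 0.18 (adjusted p = 4.67e-04), by edgeR. Bnip3 was higher in 687g than in Epcam hi by 2.01 ± 0.34 (adjusted p = 3.21e-04), a value that reached 2.91 without Epcam hi replicate 2, and the Epcam hi libraries differed 2.51-fold from each other. Bnip3l passed in both pairs as well, at 1.01 ± 0.19 (adjusted p = 8.68e-04) for 687g over Epcam hi and 1.10 ± 0.19 (adjusted p = 3.16e-04) for pB3 over pB2.

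The collagen prolyl hydroxylase genes P4ha1 and P4ha2, the Myc antagonist Mxi1 and the histone demethylase gene Kdm3a were also highest in 687g and lowest in pB2. P4ha1 had 261 and 194 CPM in 687g, 93.0 and 83.9 in Epcam hi, 112 and 129.9 in pB3, and 56.0 and 50.6 in pB2, and was higher in 687g than in Epcam hi by 1.36 ± 0.19 (adjusted p = 7.09e-05) and in pB3 than in pB2 by 1.18 ± 0.19 (adjusted p = 1.76e-04). P4ha2 had 42.0 and 57.5 CPM in 687g, 40.0 and 47.2 in Epcam hi, 30.9 and 35.4 in pB3, and 8.07 and 11.2 in pB2. Mxi1 had 71.7 and 63.2 CPM in 687g, 62.1 and 48.9 in Epcam hi, 44.6 and 49.4 in pB3, and 12.4 and 12.6 in pB2. For P4ha2 the 687g and Epcam hi libraries overlapped, and for Mxi1 those of Epcam hi and pB3 did. For both genes pB2 lay apart from the rest. Neither passed between 687g and Epcam hi, and both were higher in pB3 than in pB2, by 1.77 ± 0.23 (adjusted p = 2.38e-05) and 1.91 ± 0.20 (adjusted p = 2.48e-06), by edgeR. Kdm3a had 129.5 and 145 CPM in 687g, 125 and 145 in Epcam hi, 83.8 and 86.0 in pB3, and 50.3 and 49.9 in pB2, with a log2 fold change of 0.02 ± 0.17 for 687g over Epcam hi, which did not pass, and of 0.76 ± 0.17 (adjusted p = 0.00234) for pB3 over pB2.

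The remaining HIF targets were Adm, Ddit4, Higd1a and Ankrd37. Of these, only Ankrd37 was also highest in 687g and lowest in pB2 by mean CPM. Adm, the vasodilator peptide adrenomedullin, had 2 reads in 687g, 0 in Epcam hi, 136 in pB3 and 0 in pB2, with 4.10 and 4.86 CPM in pB3. Relative to the level that 3 counts over the pB2 libraries would give, Adm was at least 48.4-fold higher in pB3, and it was 73.6-fold lower in 687g than in pB3 (counting interval 19.98 to 614). No fold is given between 687g and Epcam hi or between Epcam hi and pB2, where both lines were at or under that floor. Ddit4, an inhibitor of mTOR signalling, had 101 and 111 CPM in 687g, 249 and 238 in Epcam hi, 67.4 and 78.9 in pB3, and 258 and 189.8 in pB2. It was low in both Vim-rich lines, at -1.20 ± 0.19 (adjusted p = 2.14e-04) for 687g over Epcam hi and -1.61 ± 0.19 (adjusted p = 1.11e-05) for pB3 over pB2, by edgeR.

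Higd1a, a small protein of the respiratory chain, had 45.1 and 79.8 CPM in 687g, 31.8 and 71.2 in Epcam hi, 40.4 and 38.9 in pB3, and 103 and 99.9 in pB2. The 687g and Epcam hi libraries overlapped, and pB2 lay above all others. It was lower in pB3 than in pB2, at -1.36 ± 0.32 (adjusted p = 0.00348) by edgeR. Ankrd37, an ankyrin repeat gene, had 16.7 and 32.7 CPM in 687g, 6.40 and 9.63 in Epcam hi, 8.13 and 7.06 in pB3, and 6.37 and 6.63 in pB2. It was higher in 687g than in Epcam hi by 1.61 ± 0.31 (adjusted p = 9.28e-04), although the 687g libraries differed 1.95-fold from each other.

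Among the transporters, Slc16a3, which encodes the lactate exporter MCT4, differed widely between the lines of both models. It lies at chr11:120948480-120960868 (plus strand) and had 78.7 and 93.3 CPM in 687g, 0.774 and 0.712 in Epcam hi, 16.6 and 20.4 in pB3, and 0.0741 and 0 in pB2. The high lines were those rich in Vim, and pB2 held a single read in both libraries together. In 687g, Slc16a3 was higher than in Epcam hi by 6.85 ± 0.30 (adjusted p = 8.14e-10) on the log2 scale, by edgeR. In pB3 it had 562 reads against 1 in pB2, a ratio of 599.9 with a counting interval of 107 to 23737, so the size of this fold is known only roughly. Its fitted log2 fold change moved from 8.90 ± 0.47 to 11.24 without pB2 replicate 1 and to 7.81 without pB2 replicate 2.

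Slc16a1, which encodes the carrier MCT1, had 96.2 and 82.5 CPM in 687g, 131 and 178 in Epcam hi, 88.6 and 98.3 in pB3, and 181 and 187 in pB2. The 687g and pB3 libraries, high for Slc16a3, lay below the others, and per kilobase of exon Slc16a3 made up 44.5% ± 5.65 in 687g, 0.411% ± 0.112 in Epcam hi, 14.1% ± 0.873 in pB3 and 0.0171% ± 0.0241 in pB2 of the sum of both carriers. Slc16a1 was lower in 687g than in Epcam hi, at -0.79 ± 0.19 (adjusted p = 0.00499) by edgeR. That call ended without Epcam hi replicate 2 (adjusted p = 0.0770) or 687g replicate 2 (adjusted p = 0.0545). It was also lower in pB3 than in pB2, at -0.98 ± 0.19 (adjusted p = 8.10e-04). Slc2a1, which encodes the glucose transporter GLUT1, had 73.9 and 75.4 CPM in 687g, 109 and 163 in Epcam hi, 86.1 and 96.3 in pB3, and 45.5 and 51.6 in pB2. Epcam hi was highest and pB2 lowest, and the pairs of a model went opposite ways, with -0.86 ± 0.20 (adjusted p = 0.00415) for 687g over Epcam hi and 0.91 ± 0.20 (adjusted p = 0.00236) for pB3 over pB2. The first of these calls ended without Epcam hi replicate 2 (adjusted p = 0.0825).

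The lactate dehydrogenase genes split sharply. Ldha, whose subunit favours the reduction of pyruvate to lactate, lies at chr7:46841475-46855627 (plus strand) and had 999 and 1275 CPM in 687g, 786 and 1229 in Epcam hi, 601 and 657 in pB3, and 674 and 556 in pB2. The libraries of 687g and Epcam hi overlapped, as did those of pB3 and pB2. The log2 fold change was 0.17 ± 0.22 (adjusted p = 0.585) for 687g over Epcam hi and 0.03 ± 0.22 (adjusted p = 0.926) for pB3 over pB2, by edgeR, and neither passed. Without Epcam hi replicate 2, Ldha did pass between 687g and Epcam hi, at 0.61 (adjusted p = 0.0410).

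Ldhb, whose subunit favours the use of lactate, lies at chr6:142490249-142507957 (minus strand) and had 0.558 and 0.470 CPM in 687g, 0.211 and 0.164 in Epcam hi, 10.8 and 12.4 in pB3, and 26.4 and 18.2 in pB2. It was thus nearly silent in both lines of the Snail-IRES-YFP model and present in both lines of the MMTV-PyMT model. Ldhb was lower in 687g than in pB3, at -4.47 ± 0.34 (adjusted p = 3.98e-07) on the log2 scale, and its Epcam hi over pB2 value was -6.85 ± 0.39 (adjusted p = 6.80e-09), by edgeR. It was also lower in pB3 than in pB2, at -0.93 ± 0.25 (adjusted p = 0.00673), no longer called without pB2 replicate 1 (adjusted p = 0.148) or pB3 replicate 1 (adjusted p = 0.0952). Per kilobase of exon, Ldhb made up 0.0977% ± 0.0283 in 687g, 0.0424% ± 0.0201 in Epcam hi, 3.75% ± 0.131 in pB3 and 7.04% ± 0.828 in pB2 of the sum of Ldha and Ldhb. The promoter stretches above hold 5 motif matches for Ldha and 1 for Ldhb, and any link of these matches to the levels was not tested.

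Of the earlier steps of glycolysis, some genes differed little between lines and others, such as Hk2 and Aldoc, differed widely. Hexokinase 1 (Hk1) spanned 65.4 to 136 CPM over the 8 libraries, both ends being 687g libraries, and no comparison passed for it with all libraries. Hexokinase 2 (Hk2), the inducible isozyme, had 105 and 78.6 CPM in 687g, 86.5 and 94.6 in Epcam hi, 31.4 and 26.4 in pB3, and 8.66 and 11.99 in pB2. The lines of the Snail-IRES-YFP model lay together at the top, followed by pB3 and then pB2. Hk2 differed by 0.02 ± 0.21 on the log2 scale for 687g over Epcam hi, which did not pass, and was higher in pB3 than in pB2 by 1.47 ± 0.22 (adjusted p = 9.60e-05), by edgeR. Its share of the hexokinase sum per kilobase was 57.8% ± 7.66 in 687g, 50.7% ± 2.60 in Epcam hi, 31.7% ± 2.56 in pB3 and 12.8% ± 0.954 in pB2. The glucose phosphate isomerase Gpi1 stayed between 131 and 213 CPM in all libraries, and passed with all libraries only for Epcam hi over pB2, at 0.67 ± 0.17 (adjusted p = 0.00564), no longer called without pB2 replicate 1 (adjusted p = 0.0601) or pB2 replicate 2 (adjusted p = 0.0655).

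Of the phosphofructokinases, which commit sugar to glycolysis, Pfkl, the liver-type subunit, had 179 and 122 CPM in 687g, 129.6 and 154 in Epcam hi, 89.7 and 92.5 in pB3, and 88.6 and 102 in pB2, and passed in neither pair of a model. Pfkm, the muscle-type subunit, had 46.3 and 24.1 CPM in 687g, 15.1 and 7.499 in Epcam hi, 17.0 and 15.4 in pB3, and 14.9 and 15.4 in pB2. It was higher in 687g than in Epcam hi by 1.66 ± 0.33 (adjusted p = 0.00127), by edgeR, while the libraries differed 1.92-fold within 687g and 2.01-fold within Epcam hi. Pfkp, the platelet-type subunit, had 125 and 95.6 CPM in 687g, 71.5 and 73.0 in Epcam hi, 47.8 and 51.9 in pB3, and 81.4 and 87.6 in pB2. It was higher in 687g than in Epcam hi by 0.61 ± 0.18 (adjusted p = 0.0176) and lower in pB3 than in pB2, at -0.76 ± 0.18 (adjusted p = 0.00370). The Pfkp call between 687g and Epcam hi ended without Epcam hi replicate 1 (adjusted p = 0.0572) or 687g replicate 1 (adjusted p = 0.0837), with total counts unscaled (adjusted p = 0.0525) and with only the libraries compared (adjusted p = 0.0830). The one between pB3 and pB2 ended without pB3 replicate 1 (adjusted p = 0.0750).

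Aldolase A (Aldoa), the main aldolase, had 646 and 566 CPM in 687g, 687 and 747 in Epcam hi, 441 and 495 in pB3, and 464 and 387 in pB2, and the lines of neither pair passed for it. Aldolase C (Aldoc), the brain-type isozyme, had 127 and 112 CPM in 687g, 76.2 and 33.1 in Epcam hi, 25.1 and 27.2 in pB3, and 205 and 172 in pB2. The 2 lines that were high for Aldoc, pB2 and 687g, belong to different models and differ in Vim. Aldoc was higher in 687g than in Epcam hi by 1.13 ± 0.29 (adjusted p = 0.00724) and lower in pB3 than in pB2, at -2.85 ± 0.31 (adjusted p = 4.17e-06), by edgeR. The first value reached 1.85 without Epcam hi replicate 1, the higher of the Epcam hi libraries. Triose phosphate isomerase (Tpi1) stayed between 285 and 453 CPM in all libraries, and no comparison passed for it with all libraries.

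Pgk1, the first ATP-yielding enzyme of glycolysis, had the largest rise of the core genes in 687g over Epcam hi and in 687g over pB3. It lies at chrX:106187100-106203699 (plus strand) and had 165 and 189 CPM in 687g, 47.2 and 56.5 in Epcam hi, 25.2 and 27.7 in pB3, and 28.9 and 22.8 in pB2. Both 687g libraries lay well above all others, Epcam hi came next, and pB3 and pB2 overlapped. Pgk1 was higher in 687g than in Epcam hi by 1.77 ± 0.19 (adjusted p = 6.44e-06) and higher in 687g than in pB3 by 2.74 ± 0.20 (adjusted p = 2.62e-07), by edgeR, while pB3 over pB2 gave 0.04 ± 0.19. Pgk1 has 2 processed copies elsewhere in the genome that match it at 95% identity or more over 68.8% of its transcript. They held 3 counts against 9091 in Pgk1, which does not show whether reads shared with them were left out of the count of Pgk1.

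Gapdh, the glyceraldehyde phosphate dehydrogenase often used as a reference gene, had only 3.48 to 15.2 CPM in these tables, fewer than most of its neighbours in the pathway. It has 77 pseudogene copies of at least 95% identity that cover 86.6% of its transcript, and these held 4670 counts against 1018 in Gapdh. How reads that map to several places were treated is not given in the sources used here, so the level of Gapdh is uncertain and no direction is drawn from it. Pseudogene copies were also found for Gpi1, Tpi1, Pgam1, Eno1, Pkm, Ldha, Ldhb, Bnip3, Bnip3l and Higd1a, and held at most 739 counts for any of them, that of Pkm, against 84415 in Pkm, with the same limit as for Pgk1.

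In the later steps, Pgam1, phosphoglycerate mutase 1, had 23.5 and 26.1 CPM in 687g, 18.6 and 28.5 in Epcam hi, 24.0 and 23.7 in pB3, and 15.8 and 13.6 in pB2. It was higher in pB3 than in pB2 by 0.70 ± 0.23 (adjusted p = 0.0207), by edgeR, and this call ended without any 1 of the 4 libraries of that pair (adjusted p between 0.0619 and 0.174) and with total counts unscaled (adjusted p = 0.0740). Eno1, the main enolase, had 145 and 95.7 CPM in 687g, 159 and 189.7 in Epcam hi, 162 and 169 in pB3, and 71.5 and 68.2 in pB2. Pkm, the pyruvate kinase of most tissues, had 989.9 and 635 CPM in 687g, 666 and 714 in Epcam hi, 731 and 815 in pB3, and 355 and 343 in pB2. For both genes pB2 lay below all other libraries, and the libraries of 687g differed by over 1.5-fold. Eno1 was higher in pB3 than in pB2 by 1.24 ± 0.21 (adjusted p = 2.18e-04) and Pkm by 1.15 ± 0.21 (adjusted p = 4.80e-04), and neither passed between 687g and Epcam hi with all libraries. Eno2, the neuronal enolase, stayed at or below 1.62 CPM in every library, and no comparison passed for it with all 8.

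Of the genes that set the flux, Pdk1, the kinase that turns off pyruvate dehydrogenase and so holds pyruvate out of mitochondria, lies at chr2:71873224-71903858 (plus strand) and had 215 and 227 CPM in 687g, 146 and 147 in Epcam hi, 39.1 and 44.3 in pB3, and 175 and 136 in pB2. The pB3 libraries were far below those of any other line, and no lines overlapped except pB2 with Epcam hi. Pdk1 was lower in pB3 than in pB2, at -1.90 ± 0.19 (adjusted p = 1.56e-06), and higher in 687g than in Epcam hi by 0.60 ± 0.18 (adjusted p = 0.0179), by edgeR. The second call ended without Epcam hi replicate 1 (adjusted p = 0.0532) and with only the libraries compared (adjusted p = 0.0846).

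Pfkfb3 and Pfkfb4 encode enzymes that make and remove fructose 2,6-bisphosphate, the activator of phosphofructokinase. Pfkfb3 had 0.335 and 0.537 CPM in 687g, 5.63 and 5.36 in Epcam hi, 1.21 and 0.972 in pB3, and 6.96 and 9.28 in pB2. Both Vim-rich lines were low, at -3.65 ± 0.42 (adjusted p = 9.93e-06) for 687g over Epcam hi and -2.89 ± 0.37 (adjusted p = 2.01e-05) for pB3 over pB2, by edgeR. Pfkfb4 had 16.9 and 14.6 CPM in 687g, 23.4 and 15.4 in Epcam hi, 7.19 and 6.41 in pB3, and 4.30 and 3.55 in pB2, with the lines of the Snail-IRES-YFP model above those of the MMTV-PyMT model. Its difference of 0.80 ± 0.27 (adjusted p = 0.0277) for pB3 over pB2 passed with all libraries and ended without any 1 of the 4 libraries of that pair (adjusted p between 0.0617 and 0.176), with total counts unscaled (adjusted p = 0.0979) and with limma-voom (adjusted p = 0.0669). Of the sum of both per kilobase, Pfkfb4 made up 98.2% ± 0.743 in 687g, 84.1% ± 3.44 in Epcam hi, 90.7% ± 0.626 in pB3 and 43.1% ± 8.23 in pB2.

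**Figure D4:**
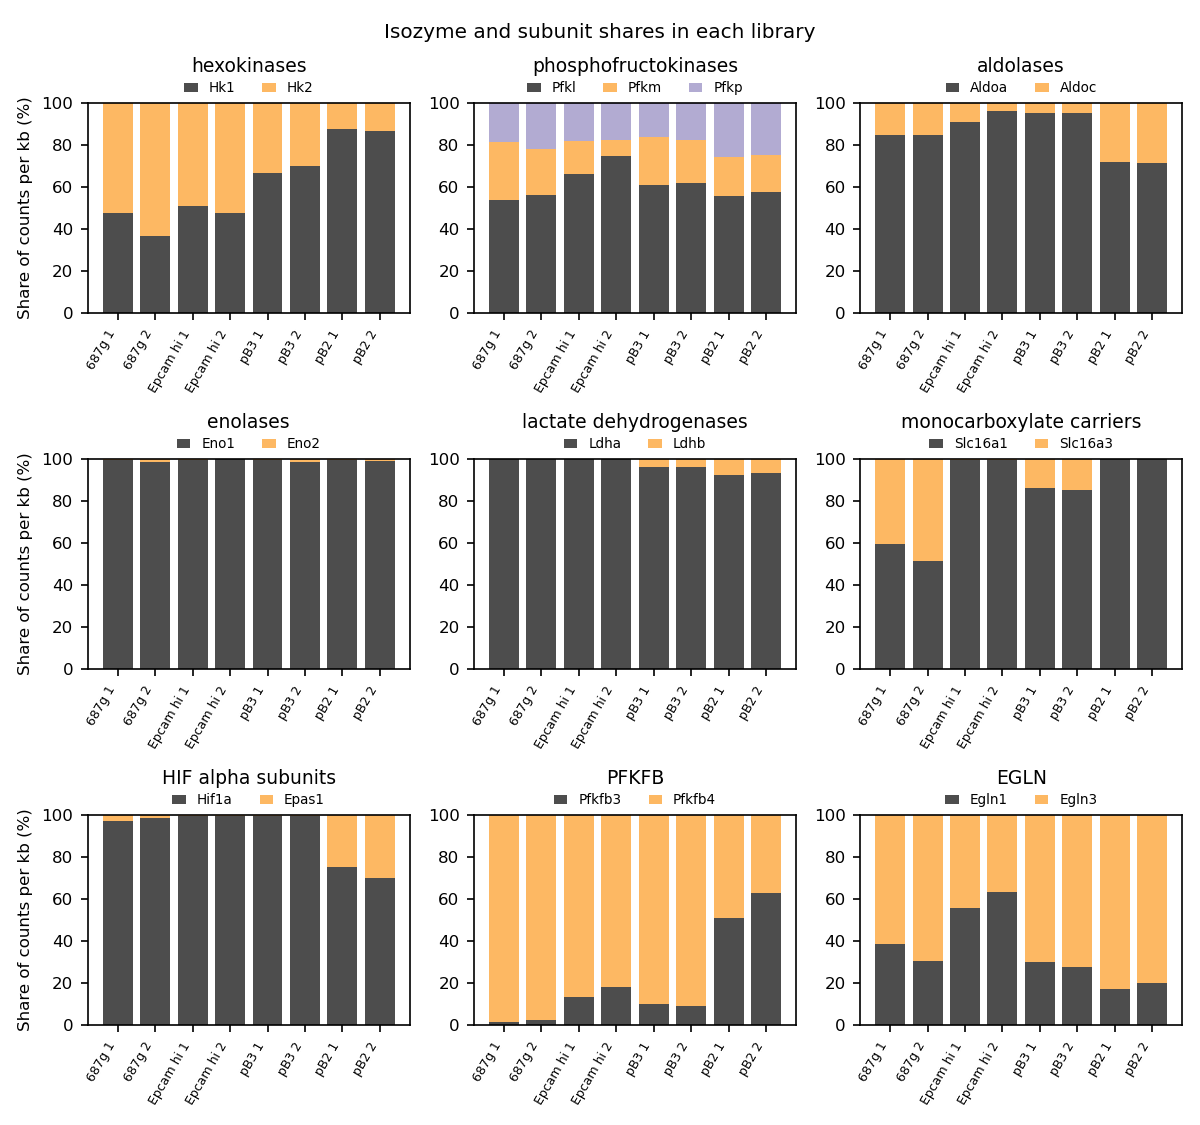
Share of each isozyme, carrier or subunit in the sum of its family, in counts per kilobase of exon (stacked bars, percent), in each of the 8 libraries. Hk2 takes 12.1% to 63.2% of the hexokinase sum and Slc16a3 0% to 48.5% of the carrier sum, while Eno1 takes over 98% of the enolase sum in every library.

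Core glycolysis and the HIF targets outside it can be set side by side within each model. In 687g against Epcam hi, 14 of the 41 genes were higher, 6 lower and 21 not called, beside 36.4% of all tested genes called (18.4% higher and 18.0% lower). Of the 17 core glycolytic genes, 4 were higher (Pgk1, Pfkm, Aldoc and Pfkp), none lower and 13 not called, with a median log2 fold change of 0.08. At an unadjusted p below 0.05 edgeR gave 1 lower core gene, Eno1 (-0.54 ± 0.20, adjusted p = 0.0551), which DESeq2 (adjusted p = 0.0473) and limma-voom (adjusted p = 0.0488) called lower. Of the 13 HIF targets, 5 were higher (Bnip3, Ankrd37, P4ha1, Bnip3l and Vegfa), 3 lower (Car9, Ndrg1 and Ddit4) and 5 not called, with a median of 0.28. Without 687g replicate 1, Hk1 was lower as well (-0.92, adjusted p = 0.00422), so the direction of the core list rests on few genes and on the settings. The median log2 fold change of all tested genes was -0.03.

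In pB3 against pB2, 15 of the 41 were higher, 11 lower and 15 not called, beside 44.8% of all tested genes called (21.6% higher and 23.2% lower). The core genes gave 4 higher (Hk2, Eno1, Pkm and Pgam1), 3 lower (Aldoc, Ldhb and Pfkp) and 10 not called, with a median of 0.10. The HIF targets gave 8 higher (Adm, Mxi1, P4ha2, Ndrg1, P4ha1, Bnip3l, Vegfa and Kdm3a), 3 lower (Car9, Ddit4 and Higd1a) and 2 not called, with a median of 1.00. The median of all tested genes was 0.02, and it was 0.20 lower when total counts were left unscaled. When only the 4 libraries of the pair were fitted, 7 core genes were called higher, the added ones being Gpi1, Gapdh and Eno2. Of these, Gapdh has an uncertain level and Eno2 stayed at or below 1.62 CPM.

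The pairs share no library, so their calls can be compared gene by gene. Slc16a3, Vegfa, Bnip3l and P4ha1 were higher in both 687g and pB3 relative to the other line of the model, and Slc16a1, Pfkfb3, Car9 and Ddit4 were lower in both. Another 5 genes, Pfkp, Aldoc, Pdk1, Epas1 and Egln3, were higher in 687g than in Epcam hi but lower in pB3 than in pB2, and Slc2a1 and Ndrg1 went the other way round. Hk1, Gpi1, Pfkl, Aldoa, Tpi1, Gapdh, Eno2, Ldha, Arnt and Egln1 passed in neither pair, which does not show that they were equal. Of all tested genes, 36.4% were called in 687g against Epcam hi and 44.8% in pB3 against pB2. Calls shared by both pairs, or opposite in them, were not counted for all tested genes. These groupings therefore do not show a trait particular to the members.

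**Figure D5:**
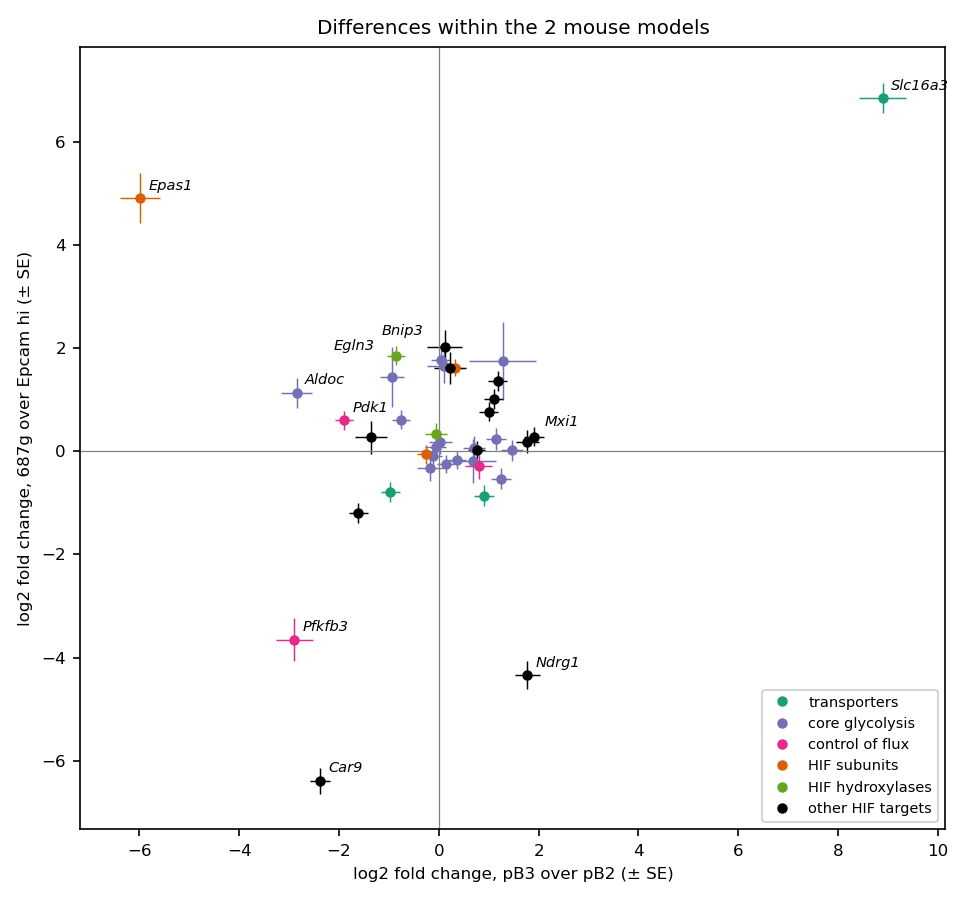
log2 fold change of 687g over Epcam hi (vertical) against that of pB3 over pB2 (horizontal) for 40 members, with standard errors as bars and roles as colours; Adm is left out because 3 of the 4 lines held 2 reads or fewer. Slc16a3 lies far to the upper right, Car9 and Pfkfb3 to the lower left, Epas1 to the upper left and Ndrg1 to the lower right.

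The difference between the pairs, 687g minus Epcam hi less pB3 minus pB2, passed for 22 of the 41 genes, 12 higher and 10 lower, beside 37.7% of all tested genes called (18.2% higher and 19.5% lower). Leaving aside Adm, for which it could not be estimated, it was largest for Epas1, at 10.89 ± 0.61 (adjusted p = 9.19e-09), followed by Ndrg1 at -6.11 ± 0.37 (adjusted p = 2.02e-08), by edgeR. Car9 gave -3.998 ± 0.30 (adjusted p = 1.76e-07), Aldoc 3.98 ± 0.42 (adjusted p = 4.66e-06) and Egln3 2.71 ± 0.25 (adjusted p = 1.23e-06). Car9 was lower in both 687g and pB3, so its value says that the loss was larger in 687g than in pB3. For Vegfa, Bnip3l and P4ha1, which rose in both pairs, the difference did not pass (-0.23 ± 0.25, -0.09 ± 0.27 and 0.18 ± 0.27). Of the core glycolytic genes 5 were higher and 3 lower, and of the HIF targets 3 were higher and 5 lower.

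Across the models, Epcam hi was set against pB2, both poor in Vim, and 687g against pB3, both rich in Vim. In Epcam hi against pB2, 22 of the 41 were higher and 6 lower, beside 51.4% of all tested genes called (25.8% higher and 25.6% lower). The core genes gave 10 higher and 2 lower (Aldoc and Ldhb), with a median of 0.67. Gapdh, whose level is uncertain, is counted among the 10, and its call (adjusted p = 0.0252) ended with limma-voom (0.0729) and without Epcam hi replicate 2 (0.391), pB2 replicate 1 (0.177) or pB2 replicate 2 (0.0659), by edgeR. The HIF targets gave 9 higher and 1 lower (Higd1a), with a median of 1.39 over the 12 of them other than Adm, which had no read in either line. Hk2 was higher in Epcam hi by 3.12 ± 0.23 (adjusted p = 7.68e-08), Slc2a1 by 1.48 ± 0.21 (adjusted p = 3.95e-05) and Mxi1 by 2.15 ± 0.20 (adjusted p = 6.95e-07), by edgeR. The core count moved with single libraries, with 4 to 10 higher when 1 of them was left out, its lowest value being without pB2 replicate 2 and 6 without pB2 replicate 1 or Epcam hi replicate 2. Higd1a was no longer called lower without pB2 replicate 1 (adjusted p = 0.0834), pB2 replicate 2 (adjusted p = 0.0700) or Epcam hi replicate 1 (adjusted p = 0.150).

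In 687g against pB3, 18 of the 41 were higher and 4 lower (Ldhb, Car9, Ndrg1 and Adm), beside 25.8% of all tested genes called (12.8% higher and 12.9% lower). The core genes gave 7 higher and 1 lower, with a median of 0.40, and the HIF targets 6 higher and 3 lower, with a median of 0.65. Bnip3 was higher in 687g by 3.36 ± 0.36 (adjusted p = 9.34e-06), Pgk1 by 2.74 ± 0.20, Pdk1 by 2.41 ± 0.19 (adjusted p = 4.84e-07) and Aldoc by 2.19 ± 0.30 (adjusted p = 9.70e-05), by edgeR. The HIF targets called higher numbered 3 without pB3 replicate 1 and 10 without either Epcam hi library, and the core genes called higher numbered 4 without pB3 replicate 2.

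Other genes of these pathways were counted from wider lists, beside the 44.8% of all tested genes called in pB3 against pB2 and the 36.4% called in 687g against Epcam hi. Of 13 tested genes of pyruvate entry into mitochondria, 1 was higher and 7 lower in pB3 than in pB2, and 4 were higher and 2 lower in 687g than in Epcam hi. Pcx, which encodes pyruvate carboxylase, had 0.949 and 1.55 CPM in 687g, 22.7 and 12.4 in Epcam hi, 2.69 and 2.59 in pB3, and 54.1 and 53.0 in pB2, and was lower in both 687g and pB3, at -3.82 ± 0.34 (adjusted p = 7.82e-07) and -4.34 ± 0.31 (adjusted p = 7.92e-08), by edgeR. Of 16 tested genes for other isozymes and side branches of glycolysis, 7 were higher and 5 lower in pB3 than in pB2, and 1 was higher and 4 lower in 687g than in Epcam hi. Fbp1, a gluconeogenic fructose bisphosphatase, had no read in 687g, Epcam hi or pB3, against 42.1 and 34.3 CPM in pB2. Tigar, which lowers fructose 2,6-bisphosphate, had 6.42 and 5.24 CPM in 687g, 69.5 and 71.8 in Epcam hi, 26.4 and 28.0 in pB3, and 21.4 and 19.4 in pB2. Of 7 genes of the pentose phosphate pathway, 2 were higher and 1 lower in pB3 than in pB2, and the 2 that passed between 687g and Epcam hi were lower in 687g, among them Rpia, the ribose phosphate isomerase, at -3.01 ± 0.23 (adjusted p = 1.48e-07).

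Of 13 tested genes for oxygen sensing and HIF partners, 2 were higher and 1 lower in pB3 than in pB2, and 5 were higher and 1 lower in 687g than in Epcam hi. Vhl, the ubiquitin ligase subunit that binds hydroxylated HIF alpha, had 50.3 and 53.5 CPM in 687g, 47.6 and 41.7 in Epcam hi, 41.3 and 48.6 in pB3, and 124 and 102 in pB2 and was lower in pB3 than in pB2, at -1.33 ± 0.19 (adjusted p = 4.85e-05) by edgeR. Of 27 further HIF targets tested, 9 were higher and 8 lower in pB3 than in pB2, and 11 were higher and 4 lower in 687g than in Epcam hi. Angptl4, a lipase inhibitor, had 41.6 and 106 CPM in 687g, 1.41 and 3.01 in Epcam hi, 1.75 and 1.49 in pB3, and 0.0741 and 0.0530 in pB2. Stc1, the glycoprotein stanniocalcin 1, had 18.1 and 34.2 CPM in 687g, 0.141 and 0.109 in Epcam hi, 3.23 and 3.37 in pB3, and 0.592 and 1.01 in pB2. The related Stc2 had 35.2 and 29.4 CPM in 687g, 0.0703 and 0 in Epcam hi, 3.29 and 3.17 in pB3, and 17.6 and 16.3 in pB2, and was highest in 687g and next in pB2. Car12, another membrane carbonic anhydrase, had 2.51 and 1.75 CPM in 687g, 2.39 and 2.74 in Epcam hi, 4.64 and 5.70 in pB3, and 66.1 and 81.3 in pB2. Unlike Car9, it was high in pB2 alone.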

How the data were processed

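Single-end RNA-seq reads were aligned by the authors with STAR 2.6.1a to GRCm38 (mm10) and counted by gene using reverse-stranded featureCounts, per the submitters' processing notes and design text. The deposited files hold raw counts for 53379 genes per library, with no rows that name no gene. Treatment of multi-mapping reads is not given in the sources used here. Symbols and exon lengths came from GENCODE M21 and promoter windows from RefSeq, using for each gene the window nearest to its annotated start. Aldoa had 2 gene IDs, and the one with more counts (71195 against 57) was used.

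Counts of all 8 libraries were fitted together in edgeR 4.0.16 (R 4.3.3) with filterByExpr by line, TMM scaling and quasi-likelihood F tests, with Benjamini-Hochberg adjustment over 15890 genes and a two-sided call at an adjusted p under 0.05. The biological coefficient of variation was 0.178. Scripts were tested on simulated data. Alternatives were RLE factors, unscaled totals, no filter, DESeq2 1.42.0, limma-voom (limma 3.58.1), only the libraries compared, a replicate block, and each library left out. Pseudogene copies were found with BLAST+ in the GENCODE transcripts (at least 95% identity over 100 bases). Counting intervals are exact at the 95% level and cover counting error only. Full statistics were given for Car9, Ndrg1, Ldha, Ldhb, Hif1a, Epas1, Pdk1, for the 4 members with the largest called change each way in each pair of a model, and for the 5 with the largest difference between the pairs; values for the other members, and statistics beyond that rule, were chosen with their values known. The members and lists were chosen with earlier results of these data known. Same-numbered libraries were checked for pairing and showed none.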

Additional observations from a re-analysis of the deposited data

Results flagged for a closer look

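The difference of 687g and Epcam hi departed from that of pB3 and pB2 for 22 of the 41 genes. These passed a test of that difference itself (edgeR's quasi-likelihood test, Benjamini-Hochberg adjustment). The same test called 37.7% of all tested genes. All values are log2 differences, those of 687g minus Epcam hi less those of pB3 minus pB2. A positive one means that the first difference was the larger in signed value, and either pair can bring this about. Higd1a, for example, gave 0.27 for 687g over Epcam hi, which did not pass, and -1.36 for pB3 over pB2. Among the HIF subunits and hydroxylases the values were 10.89 for Epas1, 2.71 for Egln3 and 1.29 for Hif1a. Among HIF targets they were 1.90 for Bnip3, 1.63 for Higd1a and 1.39 for Ankrd37 on the positive side, and -6.11 for Ndrg1, -3.998 for Car9, -1.63 for Mxi1, -1.59 for P4ha2 and -0.74 for Kdm3a on the negative side. Among core glycolytic genes they were 3.98 for Aldoc, 2.38 for Ldhb, 1.73 for Pgk1, 1.56 for Pfkm and 1.37 for Pfkp, and -1.78 for Eno1, -1.46 for Hk2 and -0.91 for Pkm. The glucose transporter gene Slc2a1 gave -1.77, Pdk1 gave 2.50 and Pfkfb4 gave -1.09. With single libraries left out, the calls of Pfkm, Pkm, Pfkfb4, Ankrd37, Higd1a and Kdm3a ended in at least 1 case, with values of 1.04 to 2.13, -1.24 to -0.58, -1.27 to -0.78, 0.88 to 1.82, 1.16 to 2.42 and -0.85 to -0.53. The other 16 kept their direction and their side of the threshold in these fits. Groups of 2 libraries are too small for a check of single outlying libraries.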

How the results depend on the processing

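Over 2987 alternative values for 202 results on single genes, no called result changed sign, 90 fell short of the threshold and 49 newly passed it, mostly with a library left out (79 and 33). Results that were not called changed sign in 67 cases. With total counts unscaled, DESeq2 and limma-voom each, 1 core glycolytic gene (Eno1) was lower in 687g than in Epcam hi, against 0 with the settings used for the report. With only the libraries compared, 7 core genes were higher in pB3 than in pB2, among them Gapdh and Eno2, with the limits given above. In CPM not divided by exon length, the summed HIF targets over pB2 were 2.24 in 687g, 1.81 in Epcam hi and 1.13 in pB3. Within 250 bases before the start alone, 38.6% of all promoters and 56.7% of those of tested genes held the motif. Leaving out single libraries gave 1 to 3 core genes lower in pB3 than in pB2, 0 to 2 lower in 687g than in Epcam hi, 4 to 10 higher in Epcam hi than in pB2, with 0 to 1 HIF targets lower, and, for 687g over pB3, 4 to 8 core genes higher, 1 to 2 lower and 3 to 10 HIF targets higher. For all genes of that comparison it gave 1136 to 2544 higher and 1266 to 2469 lower. For the difference between the pairs it gave 2 to 5 core genes lower and 1 to 3 HIF targets higher. Replicate numbers did not pair the libraries (correlations of same-numbered deviations from -0.098 to 0.17), and with a replicate block 15 of the members were higher and 11 lower in pB3 than in pB2, as without it. The causes were not tested. The small number of libraries and low counts in Adm, Slc16a3, Ldhb, Epas1 and Eno2 limit the folds given.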
